A study of Homo sapiens with 4 samples.

Results

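The genes described here are 38 genes of fatty acid oxidation and of the peroxisome, chosen by symbol from a list and found among the 23622 genes of the deposited table through their Ensembl identifiers. They were measured in MV4-11 cells, a human acute myeloid leukemia line, in 2 NC libraries and 2 sh-IRF1 libraries. The labels give the NC libraries, the study's sh-NC group, as untreated and the sh-IRF1 libraries as IRF1 knockdown, with a wild-type genotype throughout; the methods describe lentiviral pLKO.1 hairpins and puromycin selection for knockdown. IRF1, an interferon-responsive transcription factor, was the targeted gene. The hairpin behind each sh-IRF1 library is not named in the sources used here, and nothing says that the libraries of a group came from separate cultures. The p-values therefore rest only on the spread between these libraries, which limma draws toward a trend over all genes tested.

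Long-chain fatty acids are joined to coenzyme A by acyl-CoA synthetases, carried into mitochondria by the carnitine shuttle and shortened there by repeated rounds of dehydrogenation, hydration, a second dehydrogenation and thiolysis. Peroxisomes shorten very-long-chain and branched acyl-CoA with their own enzymes. Peroxins build the organelle and import those enzymes, and the nuclear receptors PPARA and PPARD respond to fatty acids and switch on many genes of both routes. By location, 17 of the 38 were mitochondrial and 14 peroxisomal, while the 4 synthetases, the 2 receptors and ECI2, an isomerase found in both organelles, were placed in neither class.

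Depth ran from 17635908 to 18695337 reads per library. IRF1 stood at 785 and 738 normalized counts (reads divided by the library's size factor) in the NC libraries and at 430 and 432 in the sh-IRF1 libraries, a log2 fold change of -0.82 (SE 0.090, limma adjusted p = 1.7e-10). Of the 9 markers listed for a myeloid leukemia line, all were detected in every library; 2 rose (LYZ, 1824 and 1785 to 3276 and 3218 normalized counts, and SPI1) and 4 fell (MPO, 477 and 443 to 185 and 158, and FLT3, PTPRC and CSF1R, the last at a limma adjusted p of 0.036 and not called when any 1 library was left out). Of 14 markers of other cell types, 5 had a row in the table, and together they came to 134 and 181 normalized counts in the NC libraries and 138 and 112 in the sh-IRF1 libraries. Among them ITGA2B, a megakaryocyte marker, fell from 69.8 and 83.2 to 40.8 and 32.8 (log2 fold change -1.04, limma adjusted p = 0.0028), PDGFRB, a fibroblast marker, went from 27.7 and 24.7 to 47.7 and 39.4 without passing the test (log2 fold change 0.71, limma adjusted p = 0.11), and ALB had at most 1 read. The part of these marker shifts in the results was not tested. In bulk RNA, fewer cells of a type and less RNA per cell cannot be told apart.

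The pathway as a whole did not move one way. Of the 37 genes that passed the filter on low values, 9 rose and 9 fell in sh-IRF1 cells at an adjusted p under 0.05, and 19 did not pass the test. Across all 14120 genes tested, 42.2% passed, 20.3% upward and 21.9% downward, against 48.6% of these genes. Their median log2 fold change was -0.02, beside -0.0019 over all genes tested. With the libraries scaled by total reads, the split became 10 higher and 5 lower. A log2 fold change beyond 0.5 was passed by 3 that rose, CPT1A, PEX10 and PEX19, and by 1 that fell, ACSL3; of all genes, 15.8% passed both limits, 8.27% upward and 7.56% downward. Just inside that limit lay PEX19 at 0.51 and just outside it ACSL4 at -0.47. The remaining gene, ECI2, had 6.2 and 2.1 normalized counts in the NC libraries and 9.0 and 0.9 in the sh-IRF1 libraries and was not tested.

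**Figure D1:**
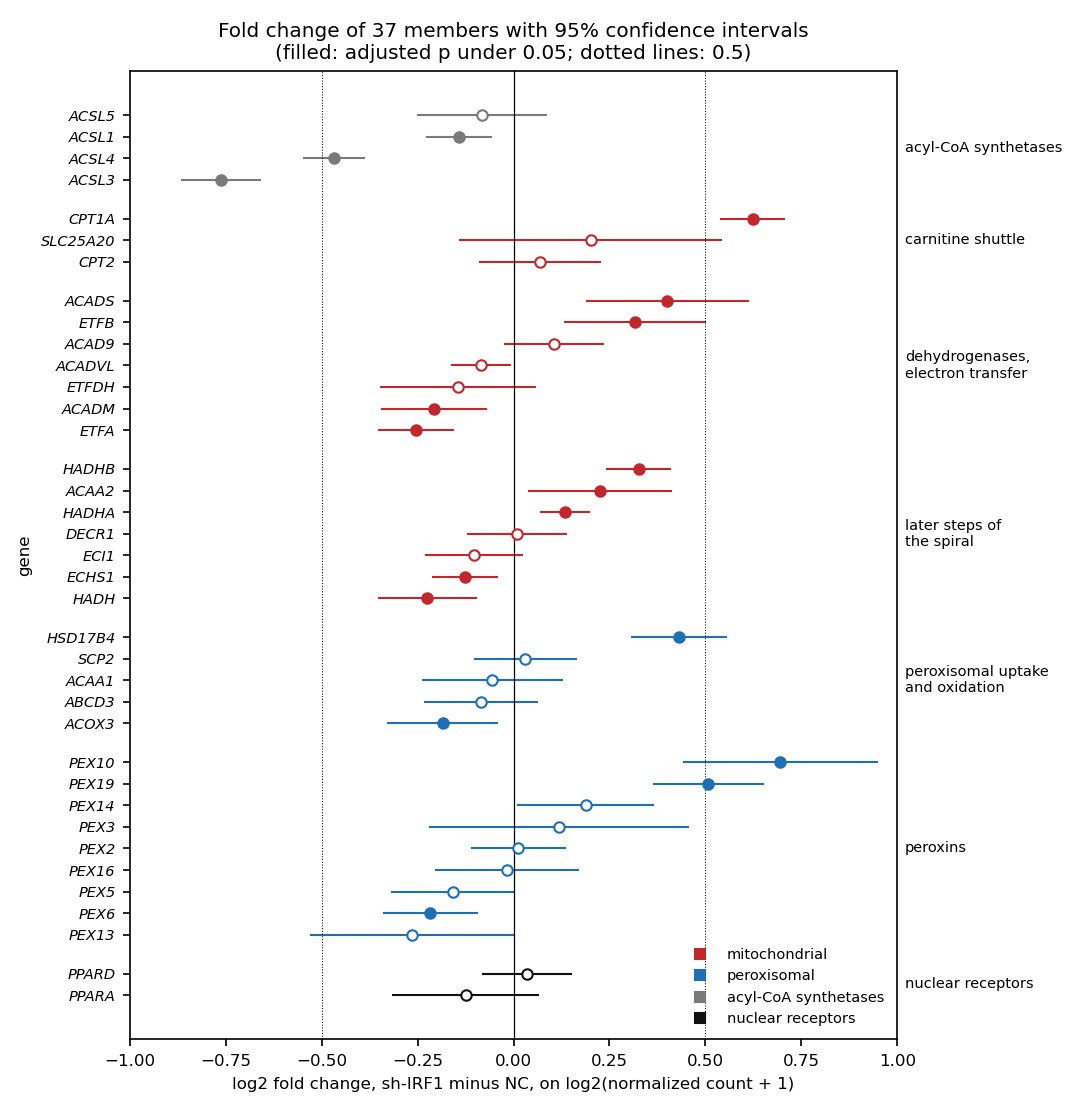
Log2 fold change, sh-IRF1 minus NC (x axis), of the 37 genes tested (y axis, grouped by role), with 95% confidence intervals from limma over 2 libraries a group. Filled points have an adjusted p under 0.05; ACSL3 at -0.76 lies farthest left and PEX10 at 0.69 farthest right, and the synthetases are the one group of 3 or more in which no point lies above 0.

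The 4 acyl-CoA synthetases, which activate long-chain fatty acids for oxidation or for building lipids, all had negative fold changes, and 3 of the 4 fell. ACSL3, found at the endoplasmic reticulum and on lipid droplets (chr2:222860942-222944639, GRCh38), had 2752 and 3084 normalized counts in the NC libraries and 1712 and 1720.3 in the sh-IRF1 libraries. Both sh-IRF1 values lay well below both controls, 58.8% of the NC mean and a log2 fold change of -0.76 (SE 0.051, limma adjusted p = 3.7e-17). ACSL4, which prefers arachidonic acid and other polyunsaturated substrates (chrX:109624244-109733403), fell from 4442 and 4607 to 3256 and 3288 normalized counts, a log2 fold change of -0.47 (SE 0.040, limma adjusted p = 1.1e-13). ACSL1, the synthetase most tied to oxidation in muscle and fat, fell by 9.3%, from 3664 and 3792 to 3260 and 3503 normalized counts (log2 fold change -0.14, limma adjusted p = 0.0059). Its adjusted p in limma was 0.054 without NC replicate 2 and 0.21 without sh-IRF1 replicate 1. ACSL5 stood at -0.08 (limma adjusted p = 0.46). Summed per exonic kilobase, the 4 synthetases came to 80.5% of their NC level. ACSL1 carried the highest level per exonic kilobase in the NC libraries, at 573 normalized counts, followed by ACSL4 at 454, ACSL3 at 202 and ACSL5 at 166. Before division by exonic length, ACSL4 was the higher of the first 2, at 4442 and 4607 beside 3664 and 3792. The level of ACSL4 relative to ACSL1 per exonic kilobase was 0.79 in both NC libraries and 0.65 and 0.61 in the sh-IRF1 libraries.

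CPT1A, the carnitine palmitoyltransferase of the outer mitochondrial membrane and the entry step that malonyl-CoA inhibits, had the smallest p of the genes that rose. The gene (chr11:68754620-68844410) had 2911 and 3084 normalized counts in the NC libraries and 4524 and 4708 in the sh-IRF1 libraries. Both sh-IRF1 values lay above both controls, a rise of 54.0% and a log2 fold change of 0.62 (95% confidence interval 0.54 to 0.71, SE 0.042, limma adjusted p = 2.6e-17). The other members of the shuttle did not pass the test: SLC25A20, the carnitine-acylcarnitine carrier of the inner membrane, stood at 0.20 (SE 0.17, limma adjusted p = 0.36), and CPT2, which returns the acyl group to coenzyme A in the matrix, at 0.07 (SE 0.079, limma adjusted p = 0.52). The level of CPT1A relative to CPT2 per exonic kilobase went from 6.16 and 6.43 in the NC libraries to 8.83 and 9.68 in the sh-IRF1 libraries. The summed level of the shuttle per exonic kilobase reached 143% of the NC level, while its 3 members differ in level. CPT1A had 456 normalized counts per exonic kilobase in the NC libraries, SLC25A20 78.7 and CPT2 72.4. Before division by exonic length, the NC means were 2998 for CPT1A, 149 for SLC25A20 and 731 for CPT2.

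**Figure D2:**
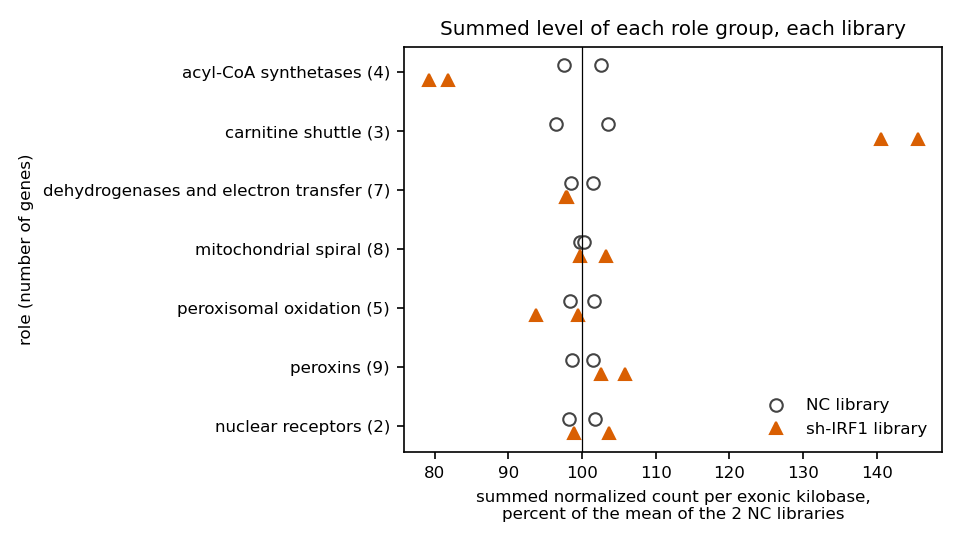
Summed normalized count per exonic kilobase of each role group (y axis, number of genes in brackets) as a percent of the NC mean (x axis), with 1 point per library, NC as open circles and sh-IRF1 as triangles. The synthetases lie near 80.5% and the carnitine shuttle near 143%, and the groups after the shuttle lie close to 100%.

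The acyl-CoA dehydrogenases, which open each round, and the electron transfer flavoprotein that takes their electrons moved both ways, with 2 of 7 higher and 2 lower. ACADS, the short-chain dehydrogenase (chr12:120725774-120740008), had 355 and 384 normalized counts in the NC libraries and 468 and 508 in the sh-IRF1 libraries. The groups did not overlap, and the log2 fold change was 0.40 (SE 0.11, limma adjusted p = 0.0017), with an adjusted p of 0.055 without sh-IRF1 replicate 2 in limma. ACADM, the medium-chain enzyme, moved the other way at -0.21 (SE 0.069, limma adjusted p = 0.012), sharing 11.0% of its exonic bases with other genes, and its call was lost without NC replicate 1 (limma adjusted p = 0.099) and without sh-IRF1 replicate 2 (limma adjusted p = 0.12). ACADVL, the very-long-chain enzyme of the inner membrane, stood at -0.08 (limma adjusted p = 0.079) and passed without NC replicate 2, at -0.12 (limma adjusted p = 0.027). ACAD9, better known as an assembly factor of complex I, stood at 0.10 (limma adjusted p = 0.20).

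The 2 subunits of the electron transfer flavoprotein, which form a heterodimer, went in opposite directions. ETFA (chr15:76188555-76311730) had 2344 and 2323 normalized counts in the NC libraries and 1954 and 1956 in the sh-IRF1 libraries, a log2 fold change of -0.26 (SE 0.049, limma adjusted p = 3.1e-05). ETFB (chr19:51345169-51366388) had 491 and 501 in the NC libraries and 596 and 642 in the sh-IRF1 libraries, a log2 fold change of 0.32 (SE 0.092, limma adjusted p = 0.0044). The level of ETFA relative to ETFB per exonic kilobase was 3.23 and 3.14 in the NC libraries and 2.22 and 2.06 in the sh-IRF1 libraries, so the groups did not overlap. This ratio was looked at after the values of both genes were known and was not tested. The other ratios of gene levels given in these results were likewise not planned and not tested. Without sh-IRF1 replicate 2, ETFB stood at 0.26 (limma adjusted p = 0.087). ETFDH, which passes the electrons on to ubiquinone, stood at -0.14 (limma adjusted p = 0.26).

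Among the enzymes of the later steps of the mitochondrial round, 3 of the 7 tested rose and 2 fell. HADHA and HADHB encode the subunits of the trifunctional protein, which carries out the last steps on long chains. HADHB (chr2:26243170-26290465) had 3151 and 3046 normalized counts in the NC libraries and 3956 and 3815 in the sh-IRF1 libraries, a log2 fold change of 0.33 (SE 0.042, limma adjusted p = 8.0e-09). HADHA (chr2:26190635-26244672) had 7175 and 7281 in the NC libraries and 7956 and 7906 in the sh-IRF1 libraries, a smaller log2 fold change of 0.13 (SE 0.032, limma adjusted p = 0.00062). Both subunits were higher in each sh-IRF1 library than in either control. The genes lie on opposite strands and their annotated spans overlap. Each starts inside the other, with starts 1502 bases apart, and they share no exonic bases in the annotation. The level of HADHA relative to HADHB per exonic kilobase went from 2.25 and 2.36 to 1.99 and 2.05.

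HADH, the hydroxyacyl-CoA dehydrogenase for shorter chains (chr4:107989714-108035241), moved the other way. It had 1370.5 and 1305 normalized counts in the NC libraries and 1187 and 1104 in the sh-IRF1 libraries, a log2 fold change of -0.22 (SE 0.064, limma adjusted p = 0.0035), and its adjusted p in limma was 0.10 without sh-IRF1 replicate 2. ECHS1, the short-chain hydratase, stood at -0.13 (limma adjusted p = 0.015), and was no longer called without NC replicate 2 (limma adjusted p = 0.097) or without sh-IRF1 replicate 2 (limma adjusted p = 0.29). ACAA2, the mitochondrial thiolase, was called at 0.23 (limma adjusted p = 0.048), and when any 1 library was left out it stood between 0.18 and 0.28 with a limma adjusted p between 0.058 and 0.27, and DESeq2 gave an adjusted p of 0.11. ECI1 and DECR1, which deal with unsaturated fatty acids, stood at -0.10 and 0.01 and did not pass the test (limma adjusted p = 0.20 and 0.93); ECI1 passed without NC replicate 2, at -0.20 (limma adjusted p = 0.025). ECHS1 had the highest level per exonic kilobase of the 38 genes in the NC libraries, at 2757 normalized counts, followed by HADHA at 1669, ACADVL at 913 and HADHB at 725. ETFDH had the lowest of the genes tested, at 19.7. This order depends on the annotated exons, which cover 1277 bases for ECHS1 and 23865 for ETFDH. By NC mean count, HADHA stood at 7228, ECHS1 at 3521 and ETFDH at 470, with SLC25A20 lower at 149.

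**Figure D3:**
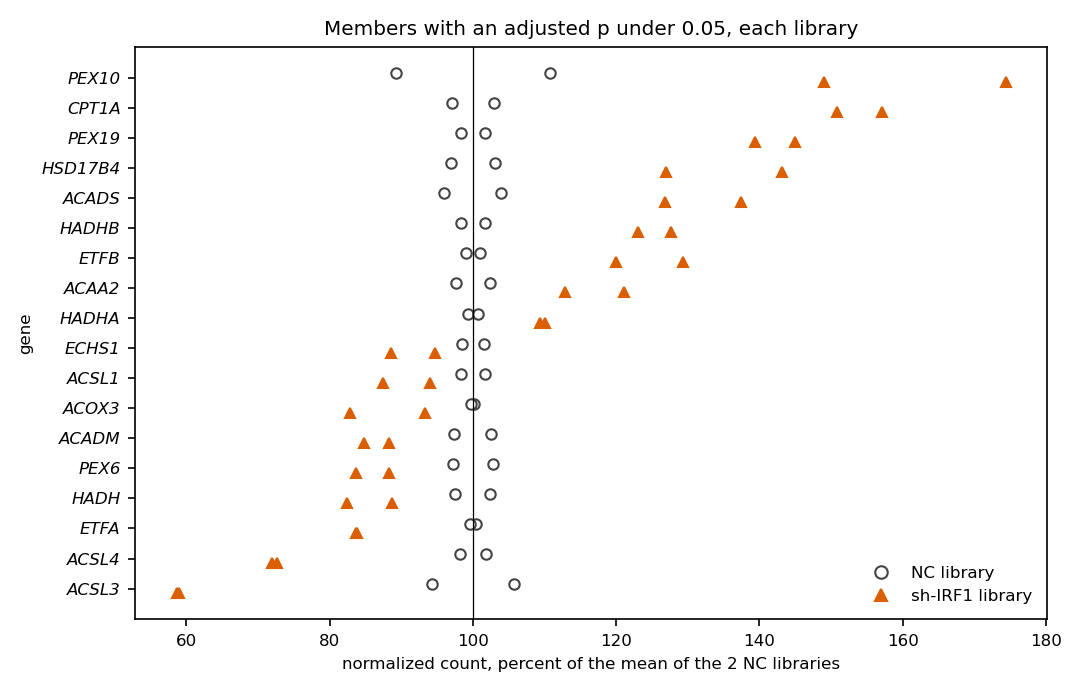
Normalized count of each of the 18 genes with an adjusted p under 0.05 (y axis) in each library, as a percent of the mean of the 2 NC libraries (x axis). Open circles are NC and triangles sh-IRF1 libraries, and PEX10, at the top, has the widest spread within a group. The groups do not overlap for any of the 18, which follows largely from choosing them by p on the same libraries. Of all genes tested, 69.2% had groups that do not overlap.

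In the peroxisomal round, 1 of 5 genes rose and 1 fell. HSD17B4, the D-bifunctional protein that combines hydratase and dehydrogenase activities (chr5:119452465-119637199), had 1176 and 1251 normalized counts in the NC libraries and 1738 and 1540 in the sh-IRF1 libraries. Every sh-IRF1 value lay above both controls, with a log2 fold change of 0.43 (SE 0.062, limma adjusted p = 1.3e-07) that ran from 0.34 to 0.52 as each library was left out. ACOX3, an acyl-CoA oxidase of branched chains (chr4:8366282-8440723), had 1035 and 1031 normalized counts in the NC libraries and 856 and 964 in the sh-IRF1 libraries, a log2 fold change of -0.18 (SE 0.072, limma adjusted p = 0.035). DESeq2 on all libraries did not call ACOX3 (DESeq2 adjusted p = 0.0996). Without sh-IRF1 replicate 1 the log2 fold change was -0.10 (limma adjusted p = 0.40). Without NC replicate 1 or NC replicate 2 it stayed at -0.18 and -0.19, with a limma adjusted p of 0.082 and 0.078 from the 3 libraries left. ABCD3, the transporter that brings acyl-CoA across the membrane, and the thiolases SCP2 and ACAA1 stood between -0.08 and 0.03, with overlapping groups for each. SCP2 and ACAA1 share 20.8% and 21.2% of their exonic bases with other genes.

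The peroxins gave 2 that rose, 1 that fell and 6 that did not pass. PEX10, a subunit of the ubiquitin ligase that recycles the import receptor (chr1:2403964-2413797), had 278 and 224 normalized counts in the NC libraries and 438 and 374 in the sh-IRF1 libraries. Its log2 fold change of 0.69 was the highest of the 37 and also among the least precise (95% confidence interval 0.44 to 0.95, SE 0.13, limma adjusted p = 1.1e-05). Of its exonic bases, 39.1% are shared with RER1 on the opposite strand, which stood at -0.11 (limma adjusted p = 0.16); the use of strand in counting is not given in the sources used here, and without it reads of the 2 genes cannot be told apart. PEX19, which binds newly made membrane proteins and brings them to the organelle (chr1:160276807-160286348), had 761 and 787 normalized counts in the NC libraries and 1122 and 1079 in the sh-IRF1 libraries. The groups lay far apart relative to their spread, with a log2 fold change of 0.51 (SE 0.072, limma adjusted p = 8.0e-08) that ran from 0.48 to 0.54 as each library was left out. Its gene shares 16.3% of exonic bases with a same-strand gene that has no row in the table used.

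PEX6, an ATPase that extracts the import receptor from the membrane (chr6:42963865-42979181), had 1500 and 1417 normalized counts in the NC libraries and 1288 and 1221 in the sh-IRF1 libraries, a log2 fold change of -0.22 (SE 0.061, limma adjusted p = 0.0033). Without sh-IRF1 replicate 2 its limma adjusted p was 0.080. PEX2, which joins PEX10 in the same ligase, stood at 0.01 (limma adjusted p = 0.89), and the level of PEX10 relative to PEX2 per exonic kilobase went from 0.28 and 0.23 to 0.45 and 0.37. PEX3, the membrane anchor for PEX19, stood at 0.12 with a wide interval (SE 0.17, limma adjusted p = 0.61), and PEX16, which recruits PEX3, at -0.02 (limma adjusted p = 0.90). PEX5, the receptor for matrix enzymes, stood at -0.16 (limma adjusted p = 0.11), and its docking partners PEX13 and PEX14 at -0.26 and 0.19 (limma adjusted p = 0.11 and 0.083).

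The receptors showed no difference that passed the test. PPARA had 529 and 553 normalized counts in the NC libraries and 482 and 510 in the sh-IRF1 libraries, a log2 fold change of -0.12 (95% confidence interval -0.32 to 0.07, limma adjusted p = 0.30). PPARD had 1499 and 1433 in the NC libraries and 1468 and 1536 in the sh-IRF1 libraries, a log2 fold change of 0.04 (95% confidence interval -0.08 to 0.15, limma adjusted p = 0.67). Neither receptor passed at an unadjusted p under 0.05 either.

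Set side by side, the mitochondrial genes had 6 higher, 4 lower and 7 that did not pass of 17, with a median log2 fold change of 0.07 and a range of -0.26 to 0.62. The peroxisomal genes had 3 higher, 2 lower and 9 that did not pass of 14, with a median of -0.0024 and a range of -0.26 to 0.69. Called genes made up 58.8% of the first class and 35.7% of the second, against 42.2% of all genes tested. The classes also differ in their highest levels, and the precision of a fold change depends on level. By mean count, the highest gene of the first class, HADHA, lay at percentile 97.7 of all genes tested. The highest of the second, HSD17B4, lay at percentile 78.0. The lowest of each class, SLC25A20 and PEX3, both lay at percentile 34.6. The part of level in these shares was not tested. The median of the peroxisomal class minus that of the mitochondrial class was -0.07, and it shrank to -0.00383 when sh-IRF1 replicate 1 was left out. Without sh-IRF1 replicate 2, the mitochondrial class had 3 higher and 1 lower. Groups did not overlap for 15 of 17 mitochondrial and 8 of 14 peroxisomal genes, beside 69.2% of all genes tested. Genes are not replicates of a condition, so the classes were described and their difference was not tested. Summed per exonic kilobase, the mitochondrial class came to 104% and the peroxisomal class to 102% of the NC level.

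**Figure D4:**
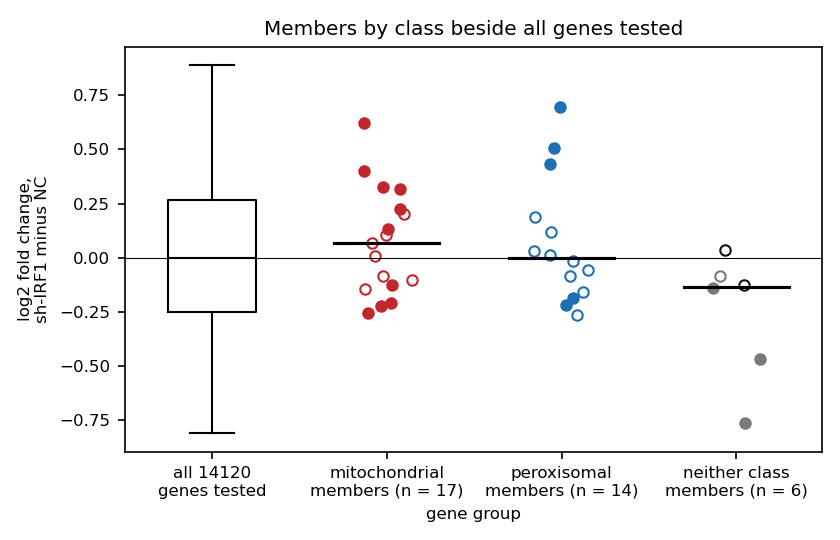
Log2 fold change, sh-IRF1 minus NC (y axis), of the mitochondrial, peroxisomal and remaining genes, 1 point per gene, filled where the adjusted p is under 0.05, with the median as a line. The box shows the quartiles of all 14120 genes tested, its whiskers the 5th and 95th percentiles; both classes scatter around 0, and their members lie within those whiskers.

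Of the 18 called genes, 9 were called in every one of the 15 alternative fits, which change the scaling, pseudocount, filter, shrinkage, block or test or leave out a library. They were ACSL3, ACSL4 and ETFA, which fell, and CPT1A, HADHA, HADHB, HSD17B4, PEX10 and PEX19, which rose. That makes 4 mitochondrial and 3 peroxisomal genes beside 2 synthetases.

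Promoter sequences, from 250 bases before to 50 after each start, were matched from RefSeq (GRCh38.p14) for 33 of the 38 genes and searched on both strands. The IRF element GAAANNGAA, the letters bound by interferon regulatory factors, was found in 1 of the 33, PEX19, beside 8.29% of all 27305 promoters. The E-box CACGTG was found in 2, ACAD9 and PEX10, beside 7.43% of all. The CLEAR core TCACGTGA (1.04% of all promoters, overlapping the E-box) and the estrogen-related receptor element TCAAGGTCA (0.359%) were found in 0. A pair of exact AGGTCA copies with 1 base between them, a strict form of the PPAR element (0.022%, 6 promoters), was also found in 0. With strings this rare among all promoters, 0 of 33 cannot show that the promoters lack sites for these factors. The matches are shown in the gene's direction, with the match in capitals; PEX10 and PEX19 were among the genes that rose, and ACAD9 did not pass the test. A match describes letters only.
PEX19 (chr1:160285303-160285332, minus strand, opposite-strand match): cttatccctaaTTCTGTTTCacaggagaaa
PEX10 (chr1:2414048-2414077, minus strand): tcagcggctcCACGTGggcgatgccgggtt
ACAD9 (chr3:128879483-128879512, plus strand): gccagccaggtgCACGTGactaaggccttg

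Among 28 other peroxisomal genes tested, 7 rose and 6 fell, with a median of 0.07. Called genes made up 46.4% of this list, beside 42.2% of all genes tested. ACOX2, the oxidase of bile acid intermediates, had 9.23 and 9.24 normalized counts in the NC libraries and 40.8 and 57.2 in the sh-IRF1 libraries, a log2 fold change of 2.27 from a low level. ACOX2, counted among the 7, reached the filter's minimum of 10 only in the sh-IRF1 libraries, so it could be tested only because it was higher there, and its p is not given as evidence. AMACR, at 1.51 and not called (limma adjusted p = 0.058), reached that minimum in both sh-IRF1 libraries but among the NC libraries only in replicate 2. Both genes enter the median. CAT, which encodes catalase, rose by 0.43 on the log2 scale (limma adjusted p = 2.1e-13). ACBD5, which tethers peroxisomes to the endoplasmic reticulum, rose by 0.40 and the isocitrate dehydrogenase gene IDH1 by 0.32 (limma adjusted p = 0.00033 and 2.7e-07). ABCD2, a transporter of very-long-chain acyl-CoA, fell by 0.49 on the log2 scale (limma adjusted p = 0.00079), beside ABCD3, which did not pass. CROT, the carnitine octanoyltransferase, had 0 reads in both NC libraries and 2 in each sh-IRF1 library, too few for a fold change.

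Of 15 mitochondrial and carnitine genes outside the 38 that were tested, 7 rose and 0 fell at an adjusted p under 0.05, with a median of 0.25. Called genes made up 46.7% of this list, beside 42.2% of all genes tested, 20.3% upward and 21.9% downward. By edgeR, 7 were also higher and 0 lower, and by DESeq2 4 higher and 0 lower. At an unadjusted p under 0.05, 8 were higher and 1, ACADSB, lower (log2 fold change -0.19). HSD17B10, a hydroxyacyl-CoA dehydrogenase that is also a subunit of mitochondrial RNase P, went from 401 and 365 normalized counts to 888 and 811 (log2 fold change 1.15, SE 0.092, limma adjusted p = 1.4e-14). ACSM3, a medium-chain acyl-CoA synthetase, went from 253 and 216 to 530.2 and 509 (log2 fold change 1.15, SE 0.12, limma adjusted p = 1.9e-11); 11.5% of its exonic bases are shared with ERI2 on the opposite strand, which stood at -0.01. MCEE, an epimerase of propionate breakdown, was called at 0.74 (limma adjusted p = 0.032), and when 1 library was left out the log2 fold change stayed between 0.62 and 0.87 while the limma adjusted p ran from 0.060 to 0.23. The count of 7 fell to 4 without NC replicate 1, without NC replicate 2 or without sh-IRF1 replicate 1.

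Around the receptors, 1 of 9 partners and coactivators was called higher and 2 lower. That is 33.3% of the list, beside 42.2% of all genes tested. RXRA, with which PPARs pair on DNA, fell from 5744 and 5657 to 4134 and 4229 normalized counts, a log2 fold change of -0.45 (SE 0.037, limma adjusted p = 3.3e-14). PPRC1, a coactivator, was called at -0.14 (limma adjusted p = 0.022), but passed in only 1 of the 4 fits that left out a library, the one without NC replicate 1; in the others the limma adjusted p ran from 0.051 to 0.23. The gene called higher, PPARG, had 8 and 4 reads in the NC libraries and 17 and 23 in the sh-IRF1 libraries. It too reached the filter's minimum only in the sh-IRF1 libraries, so its call had to be upward and is not given as evidence; it was also lost without NC replicate 2 (log2 fold change 1.13), without sh-IRF1 replicate 1 (1.72) and without sh-IRF1 replicate 2 (1.39), beside 1.55 with all libraries. Of 7 PPAR target genes tested, PLIN2, a coat protein of lipid droplets, fell from 193 and 162 to 102 and 113 normalized counts (log2 fold change -0.71, SE 0.18, limma adjusted p = 0.0012), and TXNIP, a thioredoxin-binding protein, rose by 0.27 on the log2 scale (limma adjusted p = 2.3e-05). The other 5 did not pass, among them the fatty acid transporter CD36 at 0.02 (limma adjusted p = 0.79). Called genes thus made up 28.6% of these 7, also beside 42.2% of all genes tested.

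**Figure D5:**
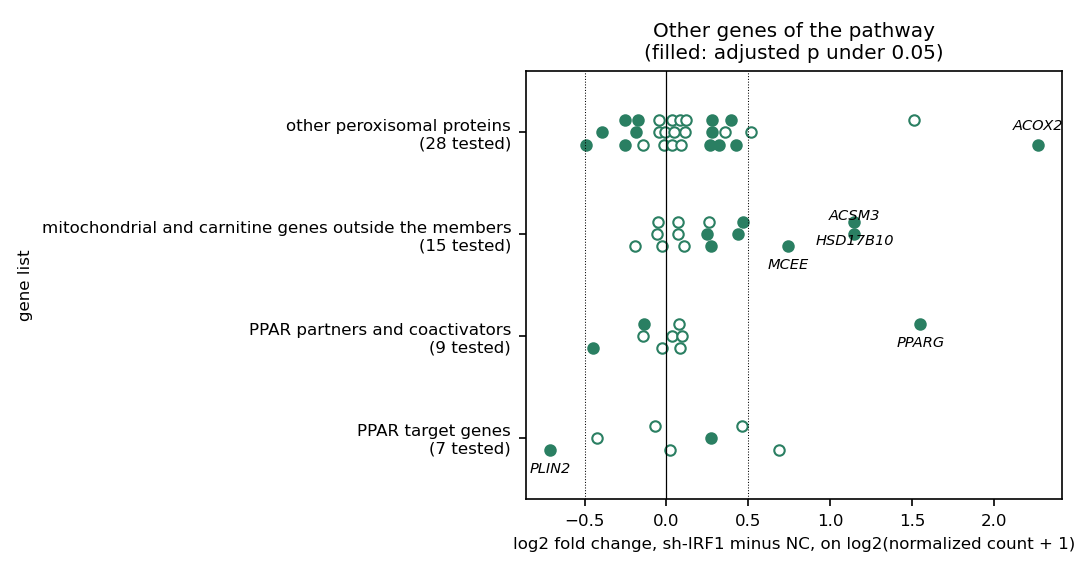
Log2 fold change, sh-IRF1 minus NC (x axis), of further genes in 4 lists (y axis, number tested in brackets), filled where the adjusted p is under 0.05 and named where the log2 fold change is also beyond 0.5. ACOX2 at 2.27 and PPARG at 1.55 reached the filter's minimum only in the sh-IRF1 libraries; PLIN2 at -0.71 lies farthest left, and no filled point lies left of 0 in the list of mitochondrial and carnitine genes.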

How the data were processed

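RNA sequencing of 2 NC and 2 sh-IRF1 libraries was analysed. The authors deposited, for 23622 genes, a normalized signal, read numbers scaled by a size factor that is constant within a library. In all 4 libraries, 100% of values were whole multiples of 1 read within 0.001, so reads were recovered. The submitters' notes name HISAT2 2.0.5 and hg38. Symbols matched 23456 identifiers, and positions, exonic lengths and overlaps came from GENCODE on GRCh38. Exonic length counts the bases of all annotated exons of a gene together, so levels and sums per exonic kilobase depend on the annotation. limma 3.58.1 in R 4.3.3 (variance trend, robust) was fitted on log2(value + 1) for genes at 10 or more in at least 2 libraries, with Benjamini-Hochberg adjustment over all 14120. edgeR 4.0.16 and DESeq2 1.42.0 on the recovered reads were alternatives. With 2 libraries a group, an exact permutation test cannot give a two-sided p below 0.33, so none was used. The smallest p-value in each direction of a role group, and every call beyond 0.5, decided which genes have values for each library; ACSL1, ACSL4, ETFB and HADHA were added after their values were seen. The genes and lists were chosen with earlier results of these data known. The scripts were tested on simulated data. Protein features were not analysed here, and some genes of the wider lists are not reported here.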

Additional observations from a re-analysis of the deposited data

How the results depend on the processing

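Each result was recomputed under 15 alternatives. Scaling by total reads moved the median of all genes from -0.0019 to 0.042, the number of the 38 genes called lower from 9 to 5, their median log2 fold change from -0.017 to 0.027, that of the mitochondrial genes from 0.069 to 0.113 and that of the peroxisomal genes from -0.0024 to 0.042; ACSL1, ACADM, ECHS1 and ACOX3 lost their calls and PEX14 gained one (0.23, limma adjusted p = 0.029). Leaving out 1 library gave 6 to 8 called higher and 5 to 8 lower, the fewest of each without sh-IRF1 replicate 2, and medians of -0.057 to 0.022 for all 38 genes and 0.031 to 0.088 for the mitochondrial genes, with a peroxisomal minus mitochondrial difference of -0.12 to -0.00383. The count beyond 0.5 upward ran from 2 to 4. Signs turned for 6 genes that were not called. Over the fits that leave out 1 library, DECR1 ran from -0.047 to 0.064, SCP2 from -0.015 to 0.076, ACAA1 from -0.170 to 0.060, PEX2 from -0.00725 to 0.032, PEX3 from -0.00196 to 0.239 and PEX16 from -0.057 to 0.023; PEX16 also turned, to 0.027, under scaling by total reads. Over the 37 genes tested and the 15 alternatives, 516 values kept direction and side of the threshold, 26 lost the call, 3 gained one and 10 turned. The cause was not tested. Same-numbered libraries of the groups share only a number (correlation of deviations -0.015 over genes); with a replicate block, 9 were higher and 9 lower, and no call among the 38 changed.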
